A study of Homo sapiens with 12 samples.

Results

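The genes examined here were 8 genes that are used as readouts of the transcriptional coactivator YAP and of the transcription factor SRF. They are CCN1 (CYR61 in the deposited table), CCN2 (CTGF in the table), AMOTL2, ANKRD1, AXL, TEAD1, SRF and VCL, chosen by name out of the 20263 genes in the table. RNA-seq had been performed on A375, an established human melanoma cell line, to ask how the Nur77 ligand DdBIC, an inducer of pyroptosis, changes gene expression and whether hemin alters that change. Hemin is a soluble form of heme, which the study added together with DdBIC.

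Each of the 4 groups had 3 libraries. The Ctrl cells carry no named agent in the labels, the DdBIC cells received DdBIC (written DBIC in the sample labels), the Hemin cells received hemin, and the DdBIC+Hemin cells received both. All groups were the same A375 line with a genotype given as wild type (WT). The dose and the duration of the treatments for these libraries are not given in the sources used here. The study's general methods state that serum in the medium was lowered during DdBIC treatment. They do not say what serum the RNA-seq libraries of each group had. The study's general statement on statistics speaks of independent experiments, but it does not say for the RNA-seq libraries whether those of a group came from separate cultures. The p-values therefore measure the spread between these samples, which may be technical.

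YAP and its paralog TAZ are coactivators without a DNA-binding domain of their own. They are held in the cytoplasm when the Hippo kinases LATS1 and LATS2 phosphorylate them, and in the nucleus they bind TEAD factors at enhancers and promoters of genes such as CCN1, CCN2 and ANKRD1. SRF binds the CArG box and works with either of 2 families of cofactors, the ternary complex factors (TCFs) for immediate-early genes and the MRTFs for cytoskeletal genes such as VCL.

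By position, the table places SRF at chr6:43171299-43181507 (plus strand), CCN2 at chr6:131948176-131951373 (minus), CCN1 at chr1:85580761-85583962 (plus) and AMOTL2 at chr3:134355874-134375479 (minus). ANKRD1 lies at chr10:90912096-90921276 (minus), VCL at chr10:73998114-74121363 (plus), AXL at chr19:41219203-41261766 (plus) and TEAD1 at chr11:12674591-12944483 (plus). All 8 are protein-coding genes in GENCODE 29 on GRCh38, and 7 of them have the same start and end there, the exception being VCL.

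The sequences just upstream show which of the letters known for TEAD and SRF binding stand beside these genes. RefSeq promoter windows (GRCh38.p14) matched 6 of the 8 members, the others being CCN1 and TEAD1. In the 250 bases before each start, 3 motifs were searched on both strands. They were GGAATG, the core that TEAD factors recognise, TGANTCA, the AP-1 motif, and the CArG box of SRF. They overlap no other match in the windows printed. Of 35116 windows of the same length, 11.9% held GGAATG, 6.57% held TGANTCA and 1.16% held a CArG box. The stretches below run 5′ to 3′ on the gene's strand, stop at the RefSeq start or, where it comes first, at the edge of the annotated gene, and have the matched motifs in capitals.
CCN2 (chr6:131951374-131951622, minus strand): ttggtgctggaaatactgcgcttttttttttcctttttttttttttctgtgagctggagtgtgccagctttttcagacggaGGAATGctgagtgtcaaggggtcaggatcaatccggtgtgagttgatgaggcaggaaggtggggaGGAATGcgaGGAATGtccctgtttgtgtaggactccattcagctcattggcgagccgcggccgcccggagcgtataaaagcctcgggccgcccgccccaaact
ANKRD1 (chr10:90921277-90921337, minus strand): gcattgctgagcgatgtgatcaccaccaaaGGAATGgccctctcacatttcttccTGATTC
SRF (chr6:43171019-43171268, plus strand): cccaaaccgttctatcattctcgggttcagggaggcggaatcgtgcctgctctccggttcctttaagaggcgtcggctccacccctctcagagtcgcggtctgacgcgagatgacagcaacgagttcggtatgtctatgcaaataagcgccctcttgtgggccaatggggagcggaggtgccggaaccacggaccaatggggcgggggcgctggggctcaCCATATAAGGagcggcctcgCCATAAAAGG
The CCN2 window held 3 copies of GGAATG, which began 169, 104 and 95 bases before the start. The ANKRD1 window held 2 copies, at 220 and 128 bases, and 1 match to TGANTCA at 195 bases. The stretch shown ends before the copy at 128 bases and before the last letter of that match. The window of the first SRF start held 2 CArG boxes, at 30 and 10 bases. VCL had 1 copy of GGAATG at 171 bases, and AMOTL2 and AXL each had 1 copy, on the opposite strand, in the window of their other listed start. These matches describe the sequence only.

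The libraries held 37951275 to 44358912 counts, and 3 counts, the limit that a count of 0 allows, came to 0.079 CPM in the library with the fewest. Levels are CPM, counts scaled to a common library size with TMM factors, and group values are mean ± SD with n = 3. In bulk RNA, fewer cells of a kind and less RNA per cell cannot be told apart. The lineage marker SOX10 was at 547.8 to 769.5 CPM, while TYR, DCT, MLANA and TYRP1 of the pigment programme stayed below 1 CPM in every library. The summed level of 9 melanocyte lineage markers was 657 to 686 CPM in Ctrl, 753 to 815 in DdBIC, 584 to 591 in Hemin and 590.4 to 680.4 in DdBIC+Hemin. Of 13 markers of other cell types, 8 were below 1 CPM in every library, with PTPRC and KRT1 at 0. The others were above 1 CPM in every library. They were CD68 (20.2 to 29.7 CPM), PDGFRB (12.3 to 16.3 CPM), LUM, KRT14 and COL1A1. The summed level of the 13 markers was 57.7 to 59.2 CPM in Ctrl and 46.5 to 52.5 in DdBIC. It was 57.0 to 58.7 CPM in Hemin and 57.9 to 61.4 in DdBIC+Hemin. The part of either list in the results was not tested. The heme-induced gene HMOX1 was at a mean of 8.71 CPM in Ctrl, 7.82 in DdBIC, 63.2 in Hemin and 168.5 in DdBIC+Hemin. It was thus 2.67-fold higher in DdBIC+Hemin than in Hemin (edgeR adjusted p = 1.05e-05), and its part in the differences between those groups was not tested.

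The first comparison asked what DdBIC did to the 8 genes. CCN1, CCN2 and AMOTL2 rose 3.24-fold, 1.80-fold and 1.68-fold, SRF rose 1.20-fold, and AXL fell to 0.893 of its Ctrl level. ANKRD1, TEAD1 and VCL did not pass the test. All 8 members passed the filter on low counts. By edgeR's quasi-likelihood test over 14287 genes with Benjamini-Hochberg adjustment and a threshold of 0.05, 5 of the 8 changed, beside 37.2% of all genes tested. By direction, 4 rose and 1 fell, beside 20.0% and 17.2% of the genes tested. The genes that rose were 53.8% of all those called and 39.95% with upper-quartile factors in place of TMM, and no direction of the 5 called members flipped with either. The median log2 fold change was 0.51 over the 8 members and -0.0082 over all genes tested.

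**Figure D1:**
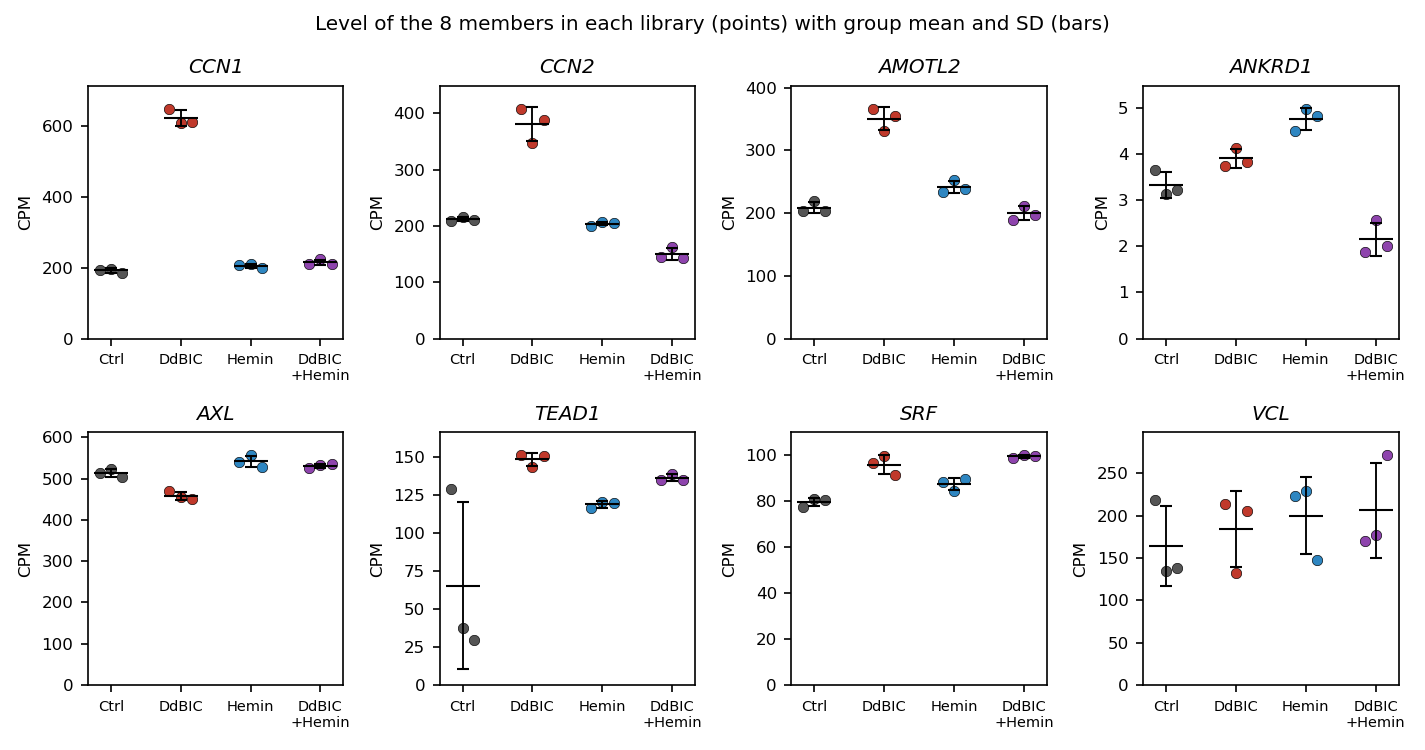
Level (CPM, y axis from 0) of each of the 8 genes in every library, by group. Points are libraries in the order of their replicate numbers, the wide bar is the group mean and the error bar the SD (n = 3). CCN1, CCN2 and AMOTL2 were highest in the 3 DdBIC libraries, TEAD1 was split within Ctrl, and VCL within every group.

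The matricellular protein CCN1 binds integrins and is among the YAP targets most often used. Its level was 194, 198 and 185 CPM in the Ctrl libraries and 649, 608 and 612 in the DdBIC libraries. It was 207, 209 and 199.9 CPM in the Hemin libraries and 209.9, 224 and 212 in the DdBIC+Hemin libraries. Every DdBIC library thus stood far above the other 9, which lay within 185 to 224 CPM. The log2 fold change of DdBIC against Ctrl was 1.70 ± 0.039 (SE), with an edgeR adjusted p of 2.02e-10. In DdBIC+Hemin against DdBIC it fell by 1.53 on the log2 scale (SE 0.038, edgeR adjusted p = 9.79e-10). Against Hemin, the cells given both agents differed by 0.067 (SE 0.038, edgeR adjusted p = 0.361), and against Ctrl by 0.16 (SE 0.038, edgeR adjusted p = 0.0164). The latter call was lost in 4 of 21 alternative fits, including a fit with Ctrl library 1 as the only Ctrl library. When single libraries were left out, the edgeR adjusted p was 0.0136 to 0.0687.

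CCN2, a relative of CCN1 known from fibrosis and matrix deposition, was at 209.5, 217 and 210.3 CPM in Ctrl and at 408, 348 and 388 in DdBIC. It was at 201, 207 and 205 CPM in Hemin and at 145, 162 and 144 in DdBIC+Hemin. The groups DdBIC and DdBIC+Hemin lay on opposite sides of Ctrl without overlap. The log2 fold change was 0.84 ± 0.058 (SE) in DdBIC against Ctrl (edgeR adjusted p = 8.41e-07). It was -0.50 ± 0.058 in DdBIC+Hemin against Ctrl (edgeR adjusted p = 0.000251) and -0.44 ± 0.058 against Hemin (edgeR adjusted p = 0.00104). So CCN2 rose with DdBIC alone and fell when DdBIC was given with hemin, relative to the matching cells without DdBIC. Each of its calls held in all 21 alternative fits (20 for the interaction).

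AMOTL2 encodes an angiomotin that binds YAP and holds it out of the nucleus, so it is both a target and a negative regulator. Its level was 204, 219 and 203 CPM in Ctrl and 366, 330.5 and 354 in DdBIC. It was 233, 252 and 238 CPM in Hemin and 189.6, 212 and 197 in DdBIC+Hemin. DdBIC libraries were again the highest, and the Hemin libraries lay above those of Ctrl and of DdBIC+Hemin without overlap. The log2 fold change was 0.75 ± 0.053 (SE) in DdBIC against Ctrl (edgeR adjusted p = 9.88e-07) and -0.27 ± 0.052 in DdBIC+Hemin against Hemin (edgeR adjusted p = 0.00993). In Hemin against Ctrl it was 0.21 ± 0.052, with an edgeR adjusted p of 0.0509 that passed the threshold in 8 of 21 alternative fits (0.0132 to 0.265 over all of them).

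ANKRD1 encodes a nuclear and sarcomeric ankyrin repeat protein (CARP), and in A375 it was a low gene with 76 to 201 counts per library. It was at 3.65, 3.12 and 3.22 CPM in Ctrl and at 3.73, 4.13 and 3.83 in DdBIC. It was at 4.50, 4.97 and 4.81 CPM in Hemin and at 1.88, 2.56 and 2.01 in DdBIC+Hemin. None of the 4 groups overlapped, with Hemin the highest and DdBIC+Hemin the lowest. DdBIC against Ctrl gave 0.23 ± 0.12 (SE, edgeR adjusted p = 0.184). In DdBIC+Hemin it fell by 1.15 on the log2 scale relative to Hemin (SE 0.13, edgeR adjusted p = 0.000333), by 0.86 relative to DdBIC (SE 0.13, edgeR adjusted p = 0.000404) and by 0.63 relative to Ctrl (SE 0.13, edgeR adjusted p = 0.00773). The difference from Ctrl lost its call in 2 of 21 alternative fits. Thus the order of groups for ANKRD1 was not that of CCN1, whose DdBIC+Hemin libraries lay above those of Ctrl.

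AXL, a receptor tyrosine kinase for GAS6 that is known in melanoma from drug-tolerant, dedifferentiated cells, moved the other way by a small amount. It was at 513, 522 and 504 CPM in Ctrl and at 469, 456 and 449.9 in DdBIC. It was at 540.5, 556 and 528 CPM in Hemin and at 525, 532 and 535 in DdBIC+Hemin. The DdBIC libraries were the lowest and overlapped no other group. The log2 fold change was -0.16 ± 0.026 (SE) in DdBIC against Ctrl (edgeR adjusted p = 0.000534) and 0.21 ± 0.026 in DdBIC+Hemin against DdBIC (edgeR adjusted p = 0.000115). In DdBIC+Hemin against Ctrl it was 0.047 ± 0.026 (edgeR adjusted p = 0.291).

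SRF, which is a target of its own CArG boxes, stood at 77.5, 80.9 and 80.4 CPM in Ctrl and 96.6, 99.6 and 91.2 in DdBIC. It stood at 88.1, 84.5 and 89.4 CPM in Hemin and at 98.8, 99.8 and 99.7 in DdBIC+Hemin. Both groups with DdBIC lay above both groups without it, with no overlap. SRF rose by 0.27 ± 0.038 (log2, SE) in DdBIC against Ctrl (edgeR adjusted p = 0.000223), and by 0.19 ± 0.038 in DdBIC+Hemin against Hemin (edgeR adjusted p = 0.0128), the latter lost in 1 of 21 alternative fits. DdBIC+Hemin against DdBIC gave 0.053 ± 0.038 (edgeR adjusted p = 0.323), and passed the threshold in 1 of 21 alternative fits, with upper-quartile factors (0.11, edgeR adjusted p = 0.041, with 0.041 to 0.742 over all of them).

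TEAD1, the DNA-binding partner of YAP, was called in none of the 6 comparisons by the test used for all genes, though some alternative fits called it, and its Ctrl libraries disagreed with each other. It was at 129, 37.7 and 29.8 CPM in Ctrl and at 151, 144 and 151 in DdBIC. It was at 117, 121 and 119.9 CPM in Hemin and at 135, 139 and 135 in DdBIC+Hemin. Ctrl libraries 2 and 3 were far below the other 10, while Ctrl library 1 lay between the Hemin and DdBIC+Hemin libraries. The log2 fold change of DdBIC against Ctrl was 1.18 ± 0.46 (SE, edgeR adjusted p = 0.0728). Without Ctrl library 1 it was 2.14 (edgeR adjusted p = 7.55e-08). Without Ctrl libraries 2 and 3, an alternative chosen after seeing the data, it was 0.20. That fit keeps only Ctrl library 1, so its spread comes from the other groups and no call against Ctrl is read from it alone. It is still counted among the alternative fits of every gene. Hemin against Ctrl was 0.86 ± 0.46 (SE, edgeR adjusted p = 0.402), 1.82 without Ctrl library 1 (edgeR adjusted p = 3.89e-06) and -0.12 without libraries 2 and 3. DdBIC+Hemin against Ctrl was 1.06 ± 0.46 (SE, edgeR adjusted p = 0.186), and in the same order became 2.02 (edgeR adjusted p = 2.3e-06) and 0.080. The interaction was -0.98 ± 0.64 (SE, edgeR adjusted p = 0.360), and became -1.94 (edgeR adjusted p = 3.1e-06) and -0.0047. The estimates thus depended on which Ctrl libraries were kept. Among the fits that left out single libraries, calls appeared only without Ctrl library 1. DdBIC against Ctrl was also called by DESeq2 and with a length offset, both given below.

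The 3 treated groups of TEAD1 did not overlap, with Hemin the lowest and DdBIC the highest. DdBIC+Hemin against Hemin was 0.20 ± 0.45 (SE, edgeR adjusted p = 0.865) with all libraries in the fit, 0.20 ± 0.032 when only these groups were fitted (edgeR adjusted p = 0.0213) and 0.20 without Ctrl libraries 2 and 3 (edgeR adjusted p = 0.00943), with 0.00943 to 0.912 over all alternative fits. DdBIC+Hemin against DdBIC was -0.12 ± 0.45 (SE, edgeR adjusted p = 0.867) and kept that value without Ctrl libraries 2 and 3 (edgeR adjusted p = 0.0192). It did not pass when only these groups were fitted (-0.11 ± 0.037, edgeR adjusted p = 0.0704), with 0.0192 to 0.936 over all of them. The estimates were close to each other and the standard errors differed, since the fit with all libraries pools the spread of Ctrl with that of the other groups. For DdBIC against Ctrl, DESeq2 gave 1.18 with an adjusted p of 0.0345.

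Ctrl libraries 2 and 3 also differed in the gene length behind the deposited values. The ratio of count to FPKM gives, up to a factor for each library, the length the authors divided by. For TEAD1 this implied length was 0.607 and 0.577 of the longest library in Ctrl libraries 2 and 3 and 0.934 to 1 in the others. A ratio of highest to lowest implied length above 1.5 was found in 700 of 10121 genes with over 200 counts in every library (6.92%), and the median ratio was 1.09. For SRF, CCN1 and CCN2 it was 1. On the TPM scale, which divides by that length, TEAD1 was at 38.7 in Ctrl library 1 and at 18.2 and 15.1 in libraries 2 and 3, so a gap remained after the length was taken into account. With the length as an offset in the count model, also an alternative chosen after seeing the data, DdBIC against Ctrl was 0.92 (edgeR adjusted p = 0.0276). Over all 21 alternative fits the log2 fold change ranged from 0.20 to 2.14 and its adjusted p from 7.55e-08 to 0.214. The cause of the low libraries was not tested.

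**Figure D2:**
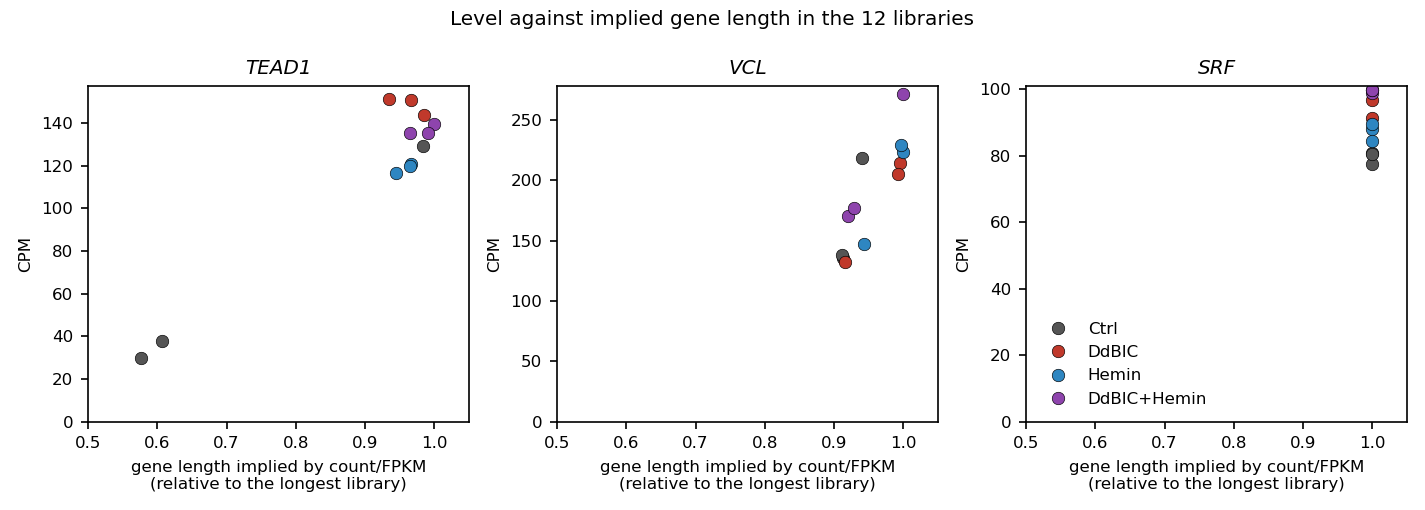
Level (CPM, y axis from 0) against the gene length implied by the deposited counts and FPKM (x axis, relative to the longest library), for TEAD1, VCL and SRF in the 12 libraries. Ctrl libraries 2 and 3 stood apart for TEAD1 at implied lengths of 0.607 and 0.577, the VCL libraries fell into a lower and a higher set within every group, and the SRF length was the same in all.

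VCL encodes vinculin, the adaptor between integrin or cadherin adhesions and actin, and is an MRTF-SRF target. Its level was 218, 135 and 138 CPM in Ctrl and 214, 132 and 205 in DdBIC. It was 224, 229 and 147 CPM in Hemin and 170.3, 177 and 271 in DdBIC+Hemin. Each group held low and high libraries, and the highest was 1.55 to 1.62 times the lowest within a group, so all groups overlapped. The log2 fold change of DdBIC against Ctrl was 0.17 ± 0.29 (SE, edgeR adjusted p = 0.698), and the standard errors of the other pairwise comparisons were also 0.29. Leaving out single libraries gave 0.042 to 0.43 for DdBIC against Ctrl. The low libraries had implied lengths of 0.911 to 0.943 of the longest, and the high ones 0.940 to 1. VCL shares up to 1109 exon bases with AP3M1 on the opposite strand, a gene at 48.3 to 55.7 CPM, and the use of strand in the counting is not given in the sources used here. The part of either in the split was not tested.

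The comparison of DdBIC+Hemin with DdBIC asked what hemin changed in cells given DdBIC. CCN1, CCN2, AMOTL2 and ANKRD1 fell to 0.346, 0.394, 0.570 and 0.551 of their DdBIC levels, and AXL rose 1.16-fold. These were 5 of the 8 members, beside 31.9% of all genes tested. By direction 1 rose, beside 13.5% of the genes tested, and 4 fell, beside 18.4%. Of all called genes 42.4% rose, and 59.2% did so with upper-quartile factors, under which these 5 members kept their direction. The median log2 fold change was -0.47 over the members and -0.010 over all genes tested. This comparison and DdBIC against Ctrl share the DdBIC libraries, so the opposite signs in them are not independent.

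Hemin alone was followed by 1 call among the 8 members, beside 4.06% of all genes tested. By direction, 1.47% of the genes tested rose and 2.59% fell. ANKRD1 rose by 0.51 ± 0.12 on the log2 scale (SE, edgeR adjusted p = 0.0442). The call was lost in 15 of 21 alternative fits, over all of which the adjusted p ranged from 0.0147 to 0.51. CCN1 was at 0.096 ± 0.038 (edgeR adjusted p = 0.222), CCN2 at -0.055 ± 0.058 (edgeR adjusted p = 0.714), AXL at 0.077 ± 0.026 (edgeR adjusted p = 0.147) and SRF at 0.13 ± 0.038 (edgeR adjusted p = 0.0805).

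In the presence of hemin, DdBIC changed 4 of the 8 members, beside 6.80% of all genes tested. SRF rose, as did 3.71% of the genes tested, and CCN2, AMOTL2 and ANKRD1 fell, as did 3.09%. Of all called genes 54.6% rose, and 42.3% did so when scaled by library size only. Against Ctrl, cells given both agents differed in 4 members, beside 12.4% of all genes. These were SRF and CCN1, which rose (5.66% of all genes), and CCN2 and ANKRD1, which fell (6.74%). There 45.6% of called genes rose, and 34.4% with library size only. Neither alternative flipped any of these members.

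Whether the DdBIC effect itself differed with hemin was tested by the interaction, the log2 fold change of DdBIC with hemin minus that without. It passed for 5 of the 8 members, beside 16.6% of all genes tested, with 1 higher (6.40% of all genes) and 4 lower (10.2%). Over all genes 38.5% of the calls were higher, and 55.4% with upper-quartile factors, under which none of the 5 flipped. CCN1 gave -1.63 ± 0.053 (SE, edgeR adjusted p = 4.55e-08) and CCN2 -1.29 ± 0.082 (edgeR adjusted p = 2.01e-06). AMOTL2 gave -1.02 ± 0.074 (edgeR adjusted p = 5.54e-06) and ANKRD1 -1.37 ± 0.18 (edgeR adjusted p = 0.000354). For AXL it was 0.13 ± 0.037 (edgeR adjusted p = 0.0303), a call lost in 9 of 20 alternative fits (0.00414 to 0.135). SRF gave -0.080 ± 0.053 (edgeR adjusted p = 0.368), with effects of 0.27 without and 0.19 with hemin.

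**Figure D3:**
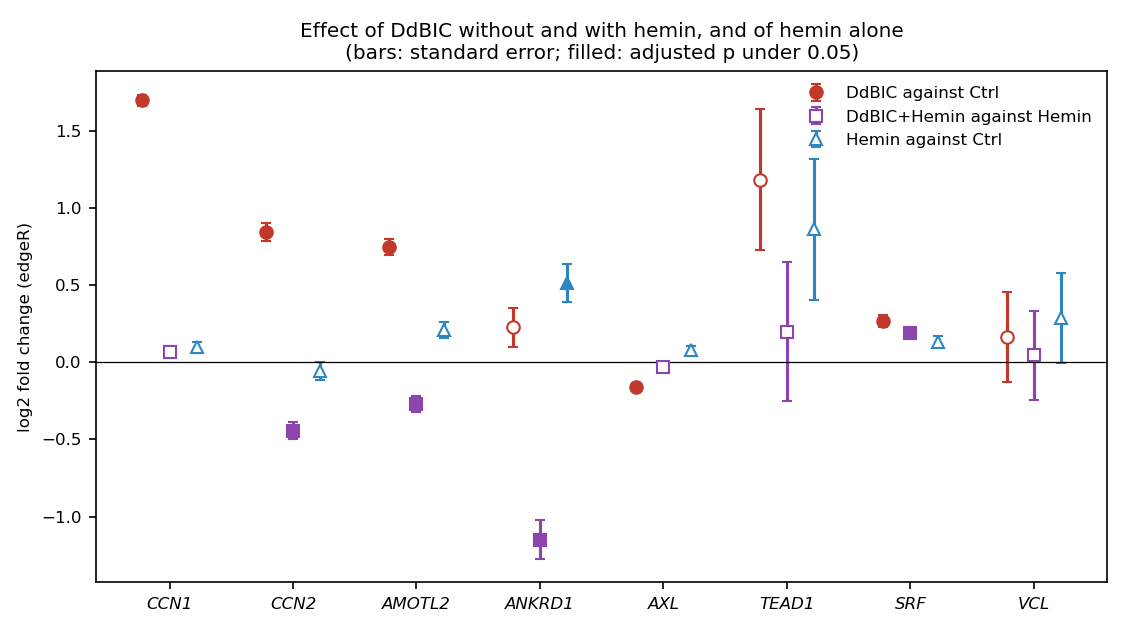
Log2 fold change (y axis) of the 8 genes in DdBIC against Ctrl (circles), DdBIC+Hemin against Hemin (squares) and Hemin against Ctrl (triangles), with standard errors. Filled symbols passed an edgeR adjusted p of 0.05. CCN2, AMOTL2 and ANKRD1 changed sign between the circles and the squares, with the ANKRD1 circle (0.23) not past the test, and SRF stayed above 0 in both.

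On the TPM scale, which allows genes to be ranked by level, the Ctrl order was AXL (247 ± 3.80), CCN2 (189 ± 2.79), CCN1 (175 ± 5.70), AMOTL2 (105 ± 2.32), VCL (57.0 ± 15.5), SRF (39.4 ± 0.758), TEAD1 (24.0 ± 12.8) and ANKRD1 (3.50 ± 0.315), each as mean ± SD with n = 3. SRF and TEAD1 were the neighbours whose libraries overlapped. With DdBIC, CCN1 (565 ± 19.2) and CCN2 (339 ± 27.8) stood above AXL (221 ± 0.952) and AMOTL2 (182 ± 15.0), with VCL, SRF and TEAD1 next and overlapping. With hemin the order was AXL (260.5 ± 6.76), CCN1 (185 ± 4.21) and CCN2 (180.1 ± 2.21), of which the latter pair overlapped. With both agents, AXL (253 ± 1.68) was followed by CCN1 (191 ± 7.46) and CCN2 (131 ± 9.25) without overlap. In both of these groups AMOTL2, VCL, SRF and TEAD1 came next, in that order and without overlap. ANKRD1 was the lowest of the 8 in every group.

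The other genes of these pathways were read from lists that held none of the members. Of 20 other YAP/TAZ-TEAD targets, 8 rose and 4 fell with DdBIC, beside 20.0% and 17.2% of all genes tested, and the list median was -0.016 on the log2 scale. NUAK2, a kinase of the AMPK family, rose by 4.07 ± 0.088 (SE), and the stress gene GADD45A by 2.37 ± 0.17. The exchange factor ARHGEF17 fell by 0.32 (SE 0.057) and the transmembrane protein gene CRIM1 fell by 0.24 (SE 0.025). In DdBIC+Hemin against DdBIC, 3 of the 20 rose and 8 fell, beside 13.5% and 18.4% of all genes tested, with NUAK2 at -3.70 ± 0.086 and GADD45A at -1.94 ± 0.17, and the list median was -0.15. Their edgeR adjusted p-values were 1.66e-10 to 0.00113 in the first comparison. The targets thus moved in both directions in either comparison, with a median near that of all genes for DdBIC.

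Among 22 genes of the Hippo kinase cascade and the TEAD partners, 6 rose and 4 fell with DdBIC (list median -0.012), shares near the 20.0% and 17.2% of all genes tested. In DdBIC+Hemin against DdBIC 1 rose and 8 fell (list median -0.13), beside 13.5% and 18.4%. The TEAD cofactor gene VGLL4, which competes with YAP, rose by 0.77 ± 0.062 (log2, SE, edgeR adjusted p = 2.89e-06). The kinases that phosphorylate YAP, LATS2 and LATS1, rose by 0.66 ± 0.040 and 0.55 ± 0.061 (edgeR adjusted p = 2.95e-07 and 3.51e-05). AMOT, the founding angiomotin, fell by 0.51 (SE 0.076) and the upstream kinase MAP4K4 fell by 0.24 (SE 0.059). The coactivators themselves did not pass, with YAP1 at -0.093 ± 0.038 (edgeR adjusted p = 0.0797) and WWTR1, which encodes TAZ, at -0.096 ± 0.044 (edgeR adjusted p = 0.113). The paralogs TEAD2 (-0.50 ± 0.19), TEAD3 (-0.11 ± 0.096) and TEAD4 (0.071 ± 0.042), and AMOTL1 (0.0089 ± 0.043), did not pass either with DdBIC alone. In DdBIC+Hemin against Ctrl, 1 gene of the list rose and 6 fell, beside 5.66% and 6.74% of all genes tested. The 7 calls became 4 when Ctrl library 2, Ctrl library 3 or DdBIC+Hemin library 2 was left out. With all libraries, YAP1 fell by 0.24 (SE 0.038, edgeR adjusted p = 0.00198), TEAD2 by 0.71 (SE 0.19, edgeR adjusted p = 0.0352) and TEAD3 by 0.35 (SE 0.097, edgeR adjusted p = 0.0386). AMOTL1 fell by 0.17 (SE 0.043, edgeR adjusted p = 0.0275) and AMOT by 0.43 (SE 0.076, edgeR adjusted p = 0.00343), while VGLL4 rose by 0.34 (SE 0.062, edgeR adjusted p = 0.00459). TEAD3 had also fallen with hemin alone, by 0.44 (edgeR adjusted p = 0.0285), and DdBIC+Hemin against Hemin was 0.095 ± 0.097 (SE, edgeR adjusted p = 0.659).

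The cofactors and targets of SRF were read by branch. Of the 5 cofactors tested, 2 were called with DdBIC, a share near the 37.2% of all genes tested. They were the TCFs ELK4 and ELK3, which rose by 0.39 ± 0.061 and 0.13 ± 0.023 on the log2 scale (SE, edgeR adjusted p = 0.000466 and 0.00135). ELK1 was at -0.091 ± 0.043, MRTFA at -0.013 ± 0.097 and MRTFB at -0.65 ± 0.40, none of which passed. Of 10 immediate-early genes of the TCF branch, 9 rose with DdBIC (list median 3.96), beside 20.0% of all genes tested, from the survival gene MCL1 (1.72 ± 0.079) and the Nur77 gene NR4A1 (2.94 ± 0.052) to the zinc finger factors EGR1 (6.51 ± 0.15) and EGR2 (7.09 ± 0.25). In DdBIC+Hemin against DdBIC, 9 of them fell (list median -3.40), beside 18.4% of all genes, and the interaction was lower for 9, beside 10.2%. Against Hemin, 7 of the 10 were higher in DdBIC+Hemin, beside 3.71% of all genes, with a list median of 0.89.

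Of 22 cytoskeletal genes of the MRTF branch that were tested, 7 rose and 4 fell with DdBIC (list median 0.0023), beside 20.0% and 17.2% of all genes tested. FHL2 and PDLIM7, LIM-domain proteins of the actin cytoskeleton, rose by 0.67 ± 0.053 and 0.54 ± 0.041 (log2, SE, edgeR adjusted p = 2.66e-06 and 1.76e-06). The myosin light chain gene MYL9 fell by 0.29 (SE 0.088) and the vinculin partner TLN1 fell by 0.24 (SE 0.024). In DdBIC+Hemin, 10 were higher than in DdBIC and 2 lower, beside 13.5% and 18.4% of all genes tested, and 10 were higher than in Ctrl, beside 5.66%. The actin genes ACTB (0.36 ± 0.023) and ACTG1 (0.36 ± 0.059), and the actin crosslinker FLNA (0.39 ± 0.027), were among those higher than in DdBIC, and these 3 were named after their values were seen. So the MRTF list was higher in DdBIC+Hemin than in DdBIC at its median (0.20), where the TCF list was lower.

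**Figure D4:**
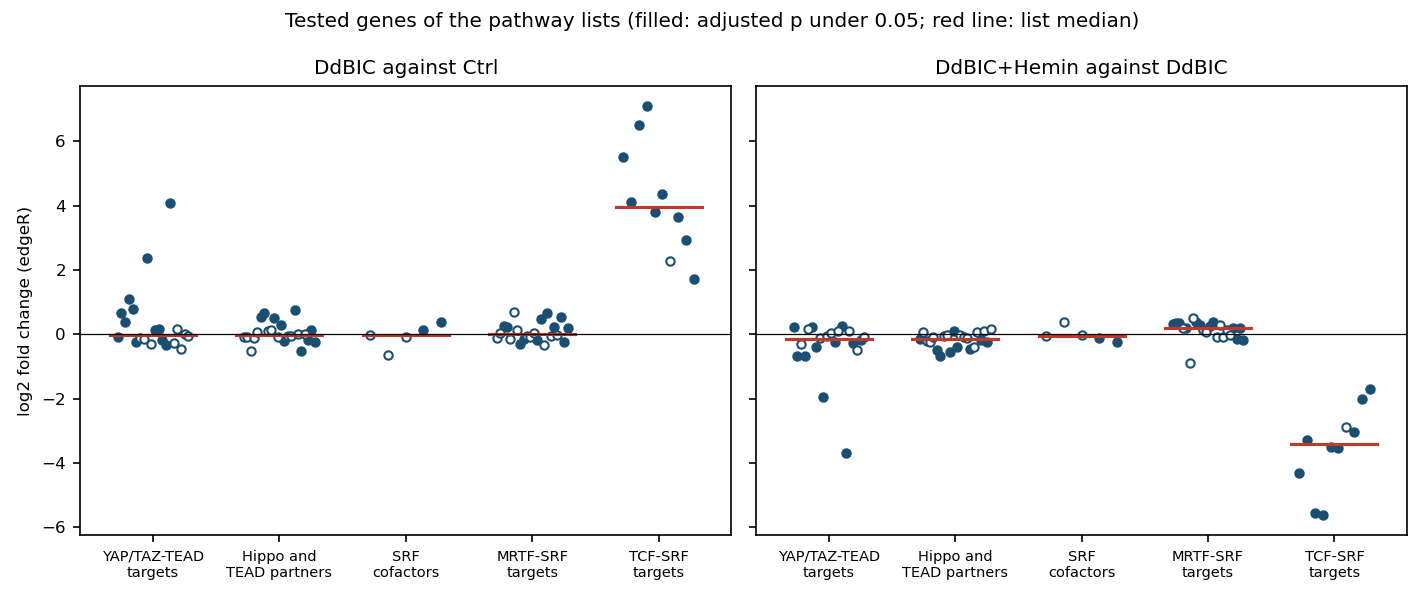
Log2 fold change (y axis) of the tested genes of 5 lists, for DdBIC against Ctrl at left and for DdBIC+Hemin against DdBIC at right. Each point is a gene, filled where the edgeR adjusted p was under 0.05, and the red line is the list median. The TCF-SRF immediate-early genes had medians of 3.96 and -3.40, while the medians of the other lists were between -0.15 and 0.20.

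Of the relatives of the members, 8 of 10 were tested and 3 were called with DdBIC, a share near the 37.2% of all genes tested. Without Ctrl library 3 the count was 1. The AXL relative MERTK rose with DdBIC by 0.65 ± 0.19 (log2, SE, edgeR adjusted p = 0.0178), while TYRO3, the remaining receptor of that family, fell by 0.70 (SE 0.20, edgeR adjusted p = 0.0201). Their ligand GAS6 was at -0.039 ± 0.10 (edgeR adjusted p = 0.797). The vinculin partner CTNNA1 fell by 0.13 (SE 0.025, edgeR adjusted p = 0.00217).

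The genes whose levels followed each member most closely were found by Pearson's r of log2 CPM over the 12 libraries, ranking 10677 genes whose mean reached 5 CPM. These libraries share 4 treatments, so the values are a description. For CCN1 they were NUAK2 (r = 0.998) and TAF1D (0.998), and for CCN2 they were H1F0 (0.992), FAM46B (0.985) and NEU1 (0.983). AMOTL2 was followed by ARRDC4 (0.984), ARRDC3 (0.979) and UGCG (0.975). For SRF they were COPG1 (0.956), TUBE1 (0.952) and FAF2 (0.949), and for AXL they were NAV2 (0.990), ALDH18A1 (0.981) and CTNNBIP1 (0.975). No gene was named for more than 1 member.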

How the data were processed

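RNA-seq of 12 A375 libraries, 3 per group, was analysed. Groups follow the treatment given in the labels. The authors deposited 1 table holding, for each library, the raw count of reads per gene and 2 values the authors had normalized. The deposited TPM is corrected for gene length and sums to the same total in every library. The deposited FPKM is corrected for length and for sequencing depth. The submitters' processing notes name Trim Galore, Subread, featureCounts and hg38, and the versions, annotation and use of strand are not given in the sources used here. TPM was used only to rank levels and FPKM only for implied lengths.

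Counts were filtered by edgeR's filterByExpr, which left 14287 genes, and scaled by TMM. One mean per group was fitted in edgeR 4.0.16 (R 4.3.3) with 8 residual degrees of freedom, and 6 comparisons were tested by the quasi-likelihood F test with Benjamini-Hochberg adjustment. The members and lists were chosen with earlier results of these data known. Beside the members, the text names the 2 highest and 2 lowest called genes of each list in DdBIC against Ctrl, direct partners of members, and the 3 genes most alike each member called there, of which 1 is not reported here. The lists share LATS2, WWC1, PTPN14 and AMOTL1. Alternatives were DESeq2 1.42.0, upper-quartile factors, library size only, other filters, the groups compared only, a replicate block, leaving out each library, a log2 fold change of at least 1, and 2 chosen after seeing the data, a length offset and Ctrl without libraries 2 and 3. The steps were tested on simulated data.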

Additional observations from a re-analysis of the deposited data

Results flagged for a closer look

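In 5 of the 8 genes the effect of DdBIC with hemin differed from its effect without hemin by the edgeR interaction test, beside 16.6% of all genes tested. CCN1 differed by -1.63 on the log2 scale, ANKRD1 by -1.37, CCN2 by -1.29 and AMOTL2 by -1.02, and AXL by 0.13, a call lost in 9 of 20 alternative fits. For CCN1 the DdBIC effect was 1.70 without and 0.067 with hemin, and for CCN2 it was 0.84 and -0.44. For AMOTL2 the effects were 0.75 and -0.27, for ANKRD1 0.23 and -1.15, and for AXL -0.16 and -0.030. The effect without hemin did not pass the test for ANKRD1, nor did the effect with hemin for CCN1 and AXL.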

How the results depend on the processing

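Of 1000 values (8 genes, each comparison, each alternative fit), 940 kept their direction and side of the threshold, 31 lost a call, 19 gained one and 10 reversed. CCN2 changed none of its 125. With DdBIC, the calls of CCN1, CCN2, AMOTL2, SRF and AXL held in all 21 alternative fits, as did the falls of CCN1, CCN2, AMOTL2 and ANKRD1 in DdBIC+Hemin against DdBIC.

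Reversals concerned VCL and, once, TEAD1, none of them called. Without Ctrl libraries 2 and 3, VCL turned to -0.25 in DdBIC against Ctrl, -0.13 in Hemin against Ctrl, -0.082 in DdBIC+Hemin against Ctrl and 0.29 in the interaction, and TEAD1 to -0.12 in Hemin against Ctrl. Leaving out single libraries moved VCL from -0.082 to 0.29 in DdBIC+Hemin against DdBIC, from -0.20 to 0.16 in DdBIC+Hemin against Hemin and from -0.38 to 0.0025 in the interaction. The cause was not tested.

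With a log2 fold change of at least 1 required, fewer members were called by construction, at 1 in DdBIC against Ctrl, 2 in DdBIC+Hemin against DdBIC, 0 in Hemin against Ctrl, 1 in DdBIC+Hemin against Hemin and 0 in DdBIC+Hemin against Ctrl. The genes called over the pathway lists were then 12, 11, 0, 3 and 2, and 12 in the interaction. For Hemin against Ctrl, the 1 member called became 2 with upper-quartile factors, 2 with at least 10 counts per library and 2 with DESeq2. It became 0 with the length offset and 0 to 2 when single libraries were left out. For DdBIC+Hemin against Ctrl, the 4 members became 2 when only the groups compared were fitted, with fewer samples. The fit without Ctrl libraries 2 and 3 keeps 1 Ctrl library. Its counts over the pathway lists are therefore only listed, and no conclusion is drawn from them. Over the pathway lists, leaving out Ctrl libraries 2 and 3 gave 0 genes in Hemin against Ctrl and 14 in DdBIC+Hemin against Ctrl, and leaving out single libraries gave 4 to 9 in Hemin against Ctrl.

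With the replicate block the members called in Hemin against Ctrl were 0 and not 1. Neither labels nor methods say whether the numbers pair the libraries. Libraries of the same number had correlations of deviations of -0.0462 to 0.081 (18 pairs) and those of different numbers -0.0699 to 0.0763 (36 pairs). These ranges overlap and cannot decide whether a number marks a shared culture or day. Depth limits ANKRD1 most, at 76 to 201 counts per library.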
